A study of Mus musculus with 6 samples.

Results

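The 10 genes described here handle zinc in mouse cells, and 2 of them, Mt1 and Mt2, encode metallothioneins. The others are Mtf1, which encodes the zinc-sensing transcription factor MTF1, the zinc exporters Slc30a1, Slc30a5 and Slc30a7, and the zinc importers Slc39a1, Slc39a6, Slc39a10 and Slc39a14. They were taken by symbol from a table of 22880 genes. All 10 were among the 12014 genes with enough reads to be tested. They were selected on the normalized counts of the same Mock and HIF-1α-KD libraries, with the difference between the groups known, so their values are given as a description, without a test.

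Metallothioneins are small cysteine-rich proteins that bind zinc and copper in the cytosol and buffer the pool of free metal. When free zinc rises, MTF1 binds metal response elements, short motifs in front of the metallothionein genes and Slc30a1, and raises their transcription. Glucocorticoids and hypoxia are also known to induce Mt1 and Mt2. Proteins of the SLC30 (ZnT) family move zinc out of the cytosol, across the plasma membrane or into the secretory pathway, while SLC39 (ZIP) proteins bring zinc into the cytosol.

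The data came from MC-38 cells, a mouse colon adenocarcinoma line, grown as orthotopic tumors in the cecum wall of C57BL/6J mice. Per the labels, cells of both groups were transduced with pLKO.1-puro, a lentiviral vector, and neither group had been passaged in vivo. The 3 Mock libraries came from control cells and the 3 HIF-1α-KD libraries from cells with a stable knockdown of HIF-1α, the oxygen-regulated subunit of the hypoxia-inducible factor 1. Tumors were digested with enzymes, and living GFP+ CD45- CD31- cells were sorted before RNA extraction. Neither the labels nor the methods say whether each library is from 1 tumor, so the spread between libraries may be in part technical.

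Libraries held 19845852 to 30809139 reads on genes. Levels are given as normalized counts, the authors' read counts divided by a factor for each library, unless FPKM (fragments per kilobase of transcript, scaled to the total of the library) is named. The targeted gene, Hif1a, was counted at 6914, 5424 and 4945 in the Mock libraries against 697.3, 3142 and 1928 after knockdown, so the groups did not overlap, and the knockdown was least deep in HIF-1α-KD replicate 2. Epithelial markers were low in all libraries, their 8 genes summing to 66.03 to 134 normalized counts in 5 libraries and to 591 in Mock replicate 3, which stood apart with Krt8 at 190.9 and Krt19 at 120.8. Epcam was at 2.31 to 37.5 and Cdx2 at 0 to 2.42. Summed over 11 leukocyte markers, of which 9 were tested, normalized counts were 4161 to 4195 in Mock, 2646 and 2907 in HIF-1α-KD replicates 1 and 2, and 12901 in replicate 3. Lyz2 was the largest of them in every library, at 8877 in that replicate, while the B cell marker Cd79a was at 119.0 there, its lowest of the 6 libraries. The defining T cell marker Cd3e was at 0 to 2.46. The summed level of 8 fibroblast and pericyte markers was 41444 to 98446 in Mock and 115386 to 225881 in HIF-1α-KD libraries. Without Col1a1, the other 7 summed to 31596 to 51376 and 24736 to 39681, which overlapped, and Dcn was the largest of these 7 in every library. The summed level of 7 endothelial markers was 511 to 632 in Mock and 328 to 484 in HIF-1α-KD libraries, most of it Cdh5, while the other 2 tested, Tek and Pecam1, had log2 differences of 1.26 and 0.26. In such bulk libraries, fewer cells of a type and less RNA per cell cannot be told apart.

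Both metallothionein transcripts were about 3-fold lower in HIF-1α-KD than in Mock cells, whereas Mtf1 and the 7 zinc transporters differed by much less. Mt1 lies on chromosome 8 at 94179082 to 94180327, and Mt2 at 94172664 to 94173568, on the plus strand of GRCm38 with Mt2 upstream of Mt1. For Mt1, Mock libraries had 4634, 5730 and 5843 normalized counts and HIF-1α-KD libraries had 1589, 1368 and 2032. The groups did not overlap, and every library of one group was far from every library of the other. The mean fell from 5402 ± 668 to 1663 ± 338 (SD, n = 3 each), which left 30.8% of the Mock level. On the log2 scale, with 1 added to each count, the difference was -1.71 (SE 0.18, 95% interval -2.12 to -1.30).

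Mt2 was the more abundant of the pair, per length, in 5 of 6 libraries. Its normalized counts were 6786, 7652 and 7147 without and 1456, 2209 and 3088 with the knockdown, again without overlap. The mean fell from 7195 ± 435 to 2251 ± 817 (SD, n = 3 each), leaving 31.3%, and the log2 difference was -1.74 (SE 0.25, 95% interval -2.30 to -1.18). The spread was wider in the knockdown group, with a coefficient of variation of 36.3% against 6.05% in Mock. HIF-1α-KD replicate 1 accounted for the low end of that spread and replicate 3 for the high end. The ratio of Mt2 to Mt1 in FPKM was 1.42, 1.30 and 1.19 in the control and 0.890, 1.57 and 1.48 in the knockdown libraries, so that Mt1 exceeded Mt2 in HIF-1α-KD replicate 1 and the ranges of the ratio overlapped. Together, the pair took 0.0445%, 0.0557% and 0.0509% of all reads on genes in the Mock libraries against 0.0123%, 0.0150% and 0.0216% after knockdown.

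**Figure D1:**
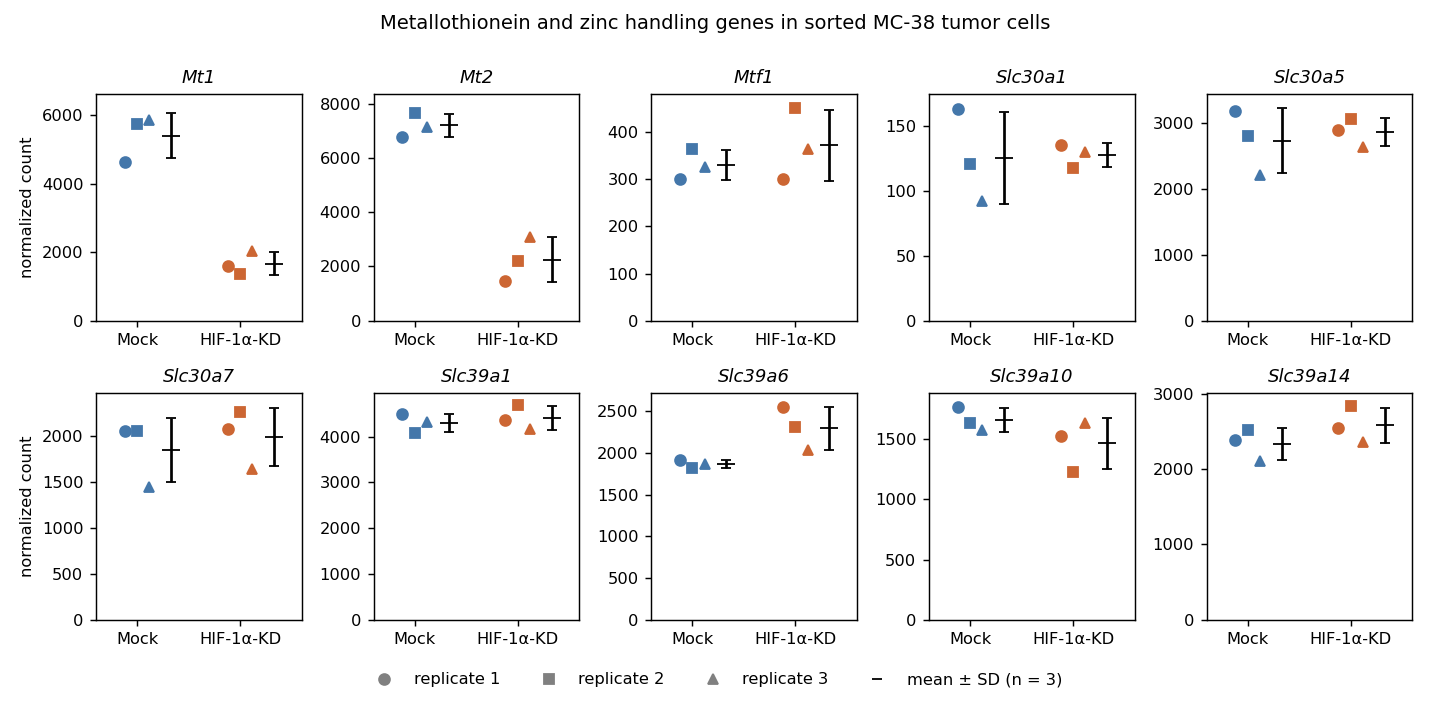
Normalized counts (vertical axes, from 0) of the 10 zinc handling genes in 3 Mock and 3 HIF-1α-KD libraries, with a symbol for each replicate and the mean ± SD beside it. Mt1 and Mt2 are far lower in all HIF-1α-KD libraries, Slc39a6 is somewhat higher without overlap, and the other 7 genes overlap between the groups.

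As a description only, 2 of the 10 genes (Mt1 and Mt2) lay past an adjusted p of 0.05 in limma, the linear model fitted to all genes, where 0.391% of the 12014 genes did. Of all genes, 46 (0.383%) passed on the lower and 1 (0.00832%) on the higher side. Since the genes were picked with this contrast known, nothing is read from that count. The count was 2 without HIF-1α-KD replicate 1 or 3, and 0 without Mock replicate 1, 2 or 3 or without HIF-1α-KD replicate 2. The size of the difference moved less, from -1.87 to -1.58 for Mt1 and from -2.00 to -1.46 for Mt2 on the log2 scale when any one library was left out. HIF-1α-KD replicate 3, the library with the high leukocyte markers, also had the highest Mt1 and Mt2 of its group. Without it the log2 differences were -1.87 and -2.00. Without Mock replicate 3, the library with the most epithelial marker RNA, they were -1.65 and -1.74. Of the 8 fibroblast and pericyte markers, 0 passed in limma and 4 had an unadjusted p under 0.05, all higher, where 12.7% of all genes did. These 4 were Col1a1 (log2 difference 1.99), Cspg4 (1.42), Rgs5 (1.15) and Pdgfrb (0.59), while Acta2 (0.33), Pdgfra (0.03), Lum (-0.16) and Dcn (-0.38) did not reach it, and the part of these markers in the lower metallothionein RNA was not tested.

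Reads of the pair could be told from each other and from other genes at the length of a short read. None of the 1292 different 50-base words of the annotated Mt1 transcripts and none of the 554 of Mt2 occurred in a transcript of another gene. The other metallothioneins of the mouse, Mt3 and Mt4, which are known from brain and from stratified epithelia, had no read in any of the 6 libraries.

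Per transcript length, the metallothioneins stood well above the other members. Mt2 was at 517 ± 50.2 FPKM in Mock cells, which ranked it 208 among the 12014 genes, and at 168.9 ± 64.2 in HIF-1α-KD cells, rank 664. Mt1 was at 400.03 ± 57.5 FPKM (rank 268) and 128 ± 27.2 FPKM (rank 910). Even at their lower level, both genes thus exceeded all 8 others. Summed per library, Mt1 and Mt2 reached 917 ± 103 FPKM in Mock and 297 ± 86.5 FPKM in HIF-1α-KD cells, and the 7 transporters 270 ± 21.2 and 300.5 ± 17.2 FPKM (SD, n = 3 each). The metallothioneins therefore made up most of this total in Mock libraries. In HIF-1α-KD replicates 1, 2 and 3 the pair was at 224.5, 273.4 and 392.7 FPKM, and the 7 transporters at 299.9, 318.0 and 283.6. The pair was thus the smaller part in replicates 1 and 2 and the larger in replicate 3. Transporters outside these 7, among them Slc39a7 at 171 FPKM in HIF-1α-KD cells, are not in the sum.

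The order of the mean levels was the same in both groups. After Mt2 and Mt1, it ran through Slc39a1 (72.6 FPKM in Mock, 77.5 in HIF-1α-KD), Slc39a14 (61.5 and 70.5), Slc39a6 (47.3 and 60.3), Slc30a5 (34.4 and 37.5), Slc39a10 (29.7 and 27.2) and Slc30a7 (22.9 and 25.6) to Mtf1 (3.81 and 4.46) and Slc30a1 (1.68 and 1.78). Neighbours whose libraries overlapped, and whose order is thus uncertain, were Slc30a5 and Slc39a10 in Mock. In HIF-1α-KD cells they were Mt2 and Mt1, Slc39a1 and Slc39a14, and Slc39a10 and Slc30a7.

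**Figure D2:**
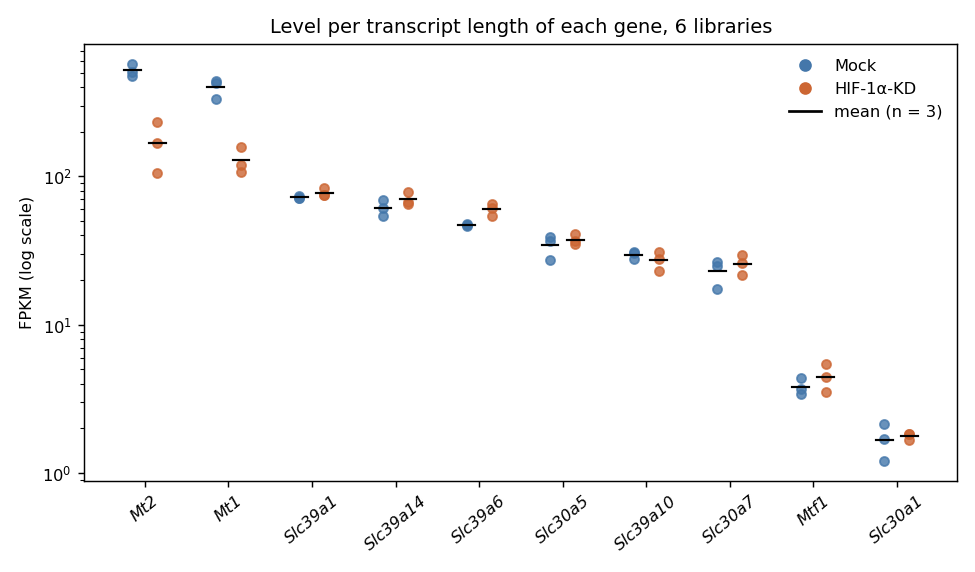
FPKM of each gene (log scale) in every Mock and HIF-1α-KD library, ordered by the Mock mean, with short lines at the means of 3 libraries. The levels span from about 517 FPKM for Mt2 in Mock down to under 2 for Slc30a1, and the gap between the groups is widest for Mt1 and Mt2.

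Mtf1, the metal sensor, had a mean that was not lower in HIF-1α-KD cells. Mock libraries had 301.6, 363.7 and 326.1 normalized counts and HIF-1α-KD libraries 300.8, 450.8 and 365.0, which overlapped. The log2 difference was 0.16 (SE 0.21, 95% interval -0.32 to 0.63). These are RNA levels, and neither nuclear entry of MTF1 nor free zinc was measured.

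Slc30a1, which exports zinc across the plasma membrane and is itself a classical MTF1 target, did not have the lower level of the metallothioneins. The control libraries had 162.5, 120.6 and 91.8 normalized counts and the knockdown libraries 135.1, 117.5 and 129.4. The HIF-1α-KD values all lay within the Mock range, and the log2 difference was 0.06 (SE 0.27, 95% interval -0.56 to 0.68). With 76 to 168 reads per library it was the least abundant of the 10 genes, and its interval was the widest of the 10.

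The exporters of the secretory pathway overlapped between the groups as well. Slc30a5 had 3196, 2809 and 2209 normalized counts in control cells against 2906, 3072 and 2645 in HIF-1α-KD cells, a log2 difference of 0.08 (SE 0.17, 95% interval -0.29 to 0.46). For Slc30a7 these were 2057, 2053 and 1445 against 2082, 2260 and 1646, a log2 difference of 0.11 (SE 0.19, 95% interval -0.32 to 0.55). In both genes replicate 3 was the lowest library of its group.

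Among the importers, Slc39a6 was the one gene without overlap, being higher in HIF-1α-KD cells. Slc39a6 (ZIP6), a plasma membrane importer, was at 1918, 1825 and 1870 normalized counts in control cells, and at 2550, 2311 and 2035 after knockdown. The log2 difference was 0.29 (SE 0.14), and its 95% interval of -0.03 to 0.61 held 0. Groups without overlap were found for 19.2% of all genes tested, for 10.4% on the higher side and for 8.75% on the lower side, so that 3 such genes among 10 chosen ones are not read as a result.

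Slc39a10 (ZIP10), the closest relative of Slc39a6, went the other way in its mean, with 1765, 1635 and 1570 normalized counts in Mock cells against 1527, 1228 and 1634 after knockdown. The groups overlapped through HIF-1α-KD replicate 3, and the log2 difference was -0.19 (SE 0.16, 95% interval -0.54 to 0.17). Slc39a14 (ZIP14), which also carries iron and manganese, overlapped between the groups, at 2385, 2523 and 2102 against 2548, 2832 and 2365 normalized counts, a log2 difference of 0.14 (SE 0.14, 95% interval -0.18 to 0.47). Slc39a1 (ZIP1) was the steadiest member, with 4481, 4082 and 4318 normalized counts against 4369, 4686 and 4166 and a log2 difference of 0.04 (SE 0.13, 95% interval -0.25 to 0.32). On the FPKM scale, which is set by library totals, Slc39a1 was at 71.6 to 74.02 in Mock and at 74.4 to 83.4 in HIF-1α-KD libraries, without overlap, so its overlap depends on the scaling.

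Over Mtf1 and the 7 transporters, log2 differences ran from -0.19 to 0.29 with a median of 0.10, and 7 of these 8 genes were higher in the mean. The median over all genes tested was 0.02. Their 95% intervals were widest for Slc30a1 (-0.56 to 0.68) and narrowest for Slc39a1 (-0.25 to 0.32), so the size of a difference that could be missed with 3 libraries a group varied by gene.

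**Figure D3:**
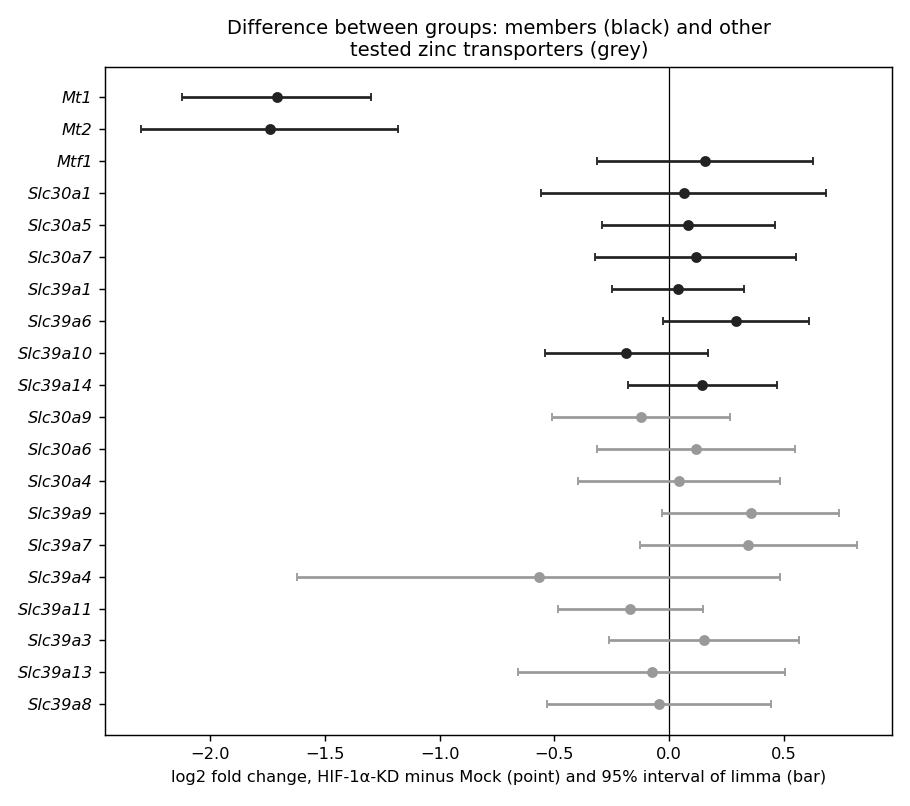
Log2 fold change of HIF-1α-KD against Mock cells (points) with 95% intervals from limma (bars) for the 10 genes described (black) and the 10 other zinc transporters that were tested (grey). Mt1 and Mt2 lie between -1.8 and -1.7 with intervals that end at -1.30 and -1.18, and all other intervals include 0.

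No other zinc transporter passed the test. The table held 24 genes of the families, 10 SLC30 and 14 SLC39 genes, of which 17 were tested. Among the 10 tested transporters outside the members, 5 were higher and 5 lower in the mean, with a median log2 difference of -0.0020, and 0 passed the adjusted threshold (limma, Benjamini-Hochberg). An unadjusted p under 0.05 was reached by 0 of them against 12.7% of all genes, and edgeR and DESeq2 called 0 as well. Of all 12014 genes, limma called 0.391%, edgeR called 47 lower and 0 higher, and DESeq2 called 187 lower and 96 higher. The largest values were those of Slc39a4, an intestinal importer with 16.1 to 63.2 normalized counts in any library (log2 difference -0.57, SE 0.46, adjusted p = 0.645 by limma), of Slc39a9 (0.35, SE 0.17, adjusted p = 0.430) and of Slc39a7 (0.34, SE 0.21, adjusted p = 0.531). Slc39a7 (ZIP7), which releases zinc from the endoplasmic reticulum, was the transporter with the highest level per length, at 133 FPKM in Mock and 171 in HIF-1α-KD cells. Of the 3 other tested exporters, Slc30a9 had a log2 difference of -0.12 (adjusted p = 0.803), Slc30a6 of 0.12 (0.831) and Slc30a4 of 0.04 (0.947) by limma. The 7 transporters that were not tested had at most 11 reads in a library.

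To see whether the promoters of the members differ in motifs of the metal sensor or of hypoxia-inducible factors, the bases from 250 before to 50 after the RefSeq start were searched in GRCm38.p6 on both strands. RefSeq promoters were at hand for 8 of the 10 genes, with 2 for Slc39a10. The core of the metal response element was written as TGCACNC or TGCGCNC, and that of the hypoxia response element as ACGTG or GCGTG, with overlapping matches of a motif counted as 1 site. Mt2 held 4 metal response element cores, Mt1 held 3, Slc30a1 held 2 and Slc30a5 held 1, while Mtf1, Slc30a7, Slc39a1 and Slc39a10 held none in this window. Among 32851 mouse promoters of the same length, 25.7% held at least 1 site, 6.14% at least 2, 1.31% at least 3 and 0.295% at least 4. Among the 11616 promoters of tested genes, the class of the members, these shares were 35.3%, 9.58%, 1.98% and 0.430%. The stretches of Mt1 and Mt2 are shown because these 2 genes carry the difference between the groups, and those of Slc30a1 and Slc30a5 because they hold the same core without such a difference. Each is printed along the strand of its gene, 5′ to 3′, with the core in capitals and its first base counted from the RefSeq start as 1. All genes shown but Slc30a5 lie on the plus strand, and cores on the other strand appear as their reverse complement.
Mt1, core from -23, chr8:94179055-94179084: cggtcccgctgTGCACACtggcgctccagg
Mt1, core from 3, chr8:94179080-94179109: ccagggagctcTGCACTCcgcccgaaaagt
Mt1, core from 21, chr8:94179098-94179127: cgcccgaaaagTGCGCTCggctctgccaag
Mt2, core from -223, chr8:94172384-94172413: agcatcgcctcTGCACCCggcccctcgggc
Mt2, core from -128, chr8:94172479-94172508: cgcagacccttTGCGCTCagctcctttgct
Mt2, core from -50, chr8:94172557-94172586: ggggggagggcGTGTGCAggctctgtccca
Mt2, core from 5, chr8:94172611-94172640: gaattcgggtcGTGCGCAggcccaggggcg
Slc30a1, core from -43, chr1:191906727-191906756: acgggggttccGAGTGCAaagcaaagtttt
Slc30a1, core from 31, chr1:191906800-191906829: gcctccgggccGAGCGCAgtcgccgcggac
Slc30a5, core from -48, chr13:100833457-100833486: cgtgtccaccaGCGCGCAggcgcaggattg

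Hypoxia response element cores were present in members with and without a difference between the groups. Mt1 and Mt2 held 2 sites each, 1 of those in Mt2 overlapping a metal response element core. Slc30a5 held 3, Slc30a1, Slc30a7 and Slc39a1 held 1 each, and Mtf1 and Slc39a10 held none. At least 1 such site was found in 43.8%, at least 2 in 17.3% and at least 3 in 6.55% of all promoters, and in 61.9%, 29.99% and 12.2% of those of tested genes. These are matches of letters in 1 window per RefSeq start, not measured binding. Annotated transcripts also start downstream of the RefSeq starts used, at 94179211 and 94179241 for Mt1 and at 94172664 and 94172860 for Mt2. The windows ended at 94179138 for Mt1 and at 94172667 for Mt2. Bases after these ends, just before the starts at 94179211, 94179241 and 94172860, were not searched. Cores of either element that may lie there are thus not in the counts.

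Among genes outside the zinc families that MTF1 is described to act on, Ndrg1 alone passed the test. Of 6 such genes, Slc40a1, an iron exporter, had too few reads to be tested (2.42 to 9.57 normalized counts in Mock, 7.24 to 22.8 in HIF-1α-KD libraries). The 5 tested were all lower in the mean (median log2 difference -0.18 against 0.02 over all genes). Of these, 1 passed the threshold, where 0.391% of all genes did. Ndrg1, a stress response gene also known as a HIF-1α target, had 27090, 16990 and 26450 normalized counts in Mock cells against 8514, 8281 and 6392 after knockdown (log2 difference -1.59, SE 0.21, adjusted p = 0.0245 by limma). Without Mock replicate 1 or 3 or HIF-1α-KD replicate 2 or 3 it no longer passed. The other 4 had log2 differences from -0.28 to -0.01, with unadjusted p from 0.382 to 0.970 by limma, so no shared direction is read from them. Ndrg1 is in both the MTF1 and the hypoxia list, so these counts overlap.

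Copper handling genes, listed because metallothioneins also bind copper, had log2 differences from -0.54 to 0.24. All 12 were tested, 5 were higher and 7 lower in the mean, the median log2 difference was -0.05, and 0 passed in limma, in edgeR or in DESeq2. An unadjusted p under 0.05 was reached by 1 of the 12, where 12.7% of all genes did. It was Atp7a, a copper exporter (log2 difference -0.54, SE 0.21, adjusted p = 0.352). The next 2 by size were Slc31a2, a relative of the main copper importer (0.24, SE 0.20, adjusted p = 0.649), and Ccs, the copper chaperone of Sod1 (-0.22, SE 0.14, adjusted p = 0.565).

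Hypoxia-inducible genes were read beside the metallothioneins in the same libraries. Of 8 genes, all were lower, with a median of -1.91, and 5 passed in limma, where 0.391% of all genes did. Those passing were Bnip3 (log2 difference -2.70, adjusted p = 0.0205), Ankrd37 (-2.60, 0.0245), Slc2a1 (-1.83, 0.0254), Ndrg1 (-1.59) and Pdk1 (-1.57, 0.0281). Not passing were Car9 (-2.93), Egln3 (-1.99, adjusted p = 0.210) and Adm (-1.84, adjusted p = 0.345 by limma). Adm had 3 to 51 reads in a library, and its groups overlapped. The number passing was 0 without Mock replicate 3 or HIF-1α-KD replicate 2, 1 without Mock replicate 1, 3 without Mock replicate 2 and 2 without HIF-1α-KD replicate 3. The list was written with earlier results of these data known. The log2 differences of Mt1 and Mt2 were thus of the size of that of Slc2a1, the glucose transporter, and smaller than that of Bnip3, a mitophagy gene.

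Library by library, the order of the metallothionein levels differed from that of Hif1a. As a share of the Mock mean, Hif1a was at 12.1%, 54.5% and 33.5% in HIF-1α-KD replicates 1, 2 and 3. Mt1 was at 29.4%, 25.3% and 37.6% in the same libraries, and Mt2 at 20.2%, 30.7% and 42.9%. Car9, a carbonic anhydrase and hypoxia marker (log2 difference -2.93, adjusted p = 0.0553 by limma), was at 5.22%, 16.3% and 25.6%. Replicate 2, with the most Hif1a RNA, thus had the least Mt1 of the 3, and Mt2 and Car9 were both lowest in replicate 1 and highest in replicate 3. With 3 libraries, no relation between these genes was tested.

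**Figure D4:**
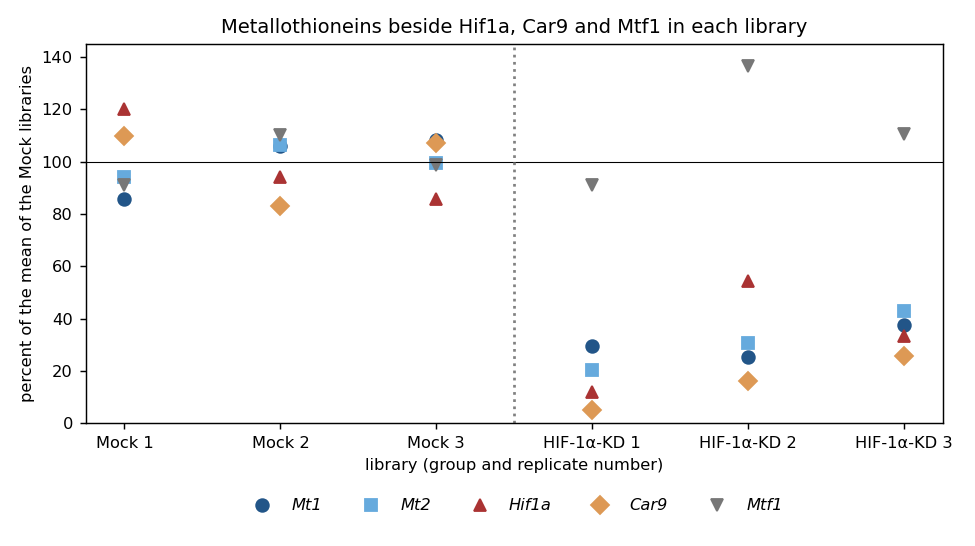
Normalized counts of Mt1, Mt2, Hif1a, Car9 and Mtf1 in each library as a percent of the mean of the 3 Mock libraries (line at 100). In HIF-1α-KD libraries Mt1 and Mt2 lie between 20.2% and 42.9%, and Mtf1 between 91.02% and 136%.

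Glucocorticoid-induced genes were also examined, since glucocorticoids are among the known inducers of Mt1 and Mt2. Of 8 genes, 7 were tested and all 7 were lower in the mean in HIF-1α-KD cells, with a median log2 difference of -0.75. By limma 1 passed, where 0.391% of all genes did. It was the clock gene Per1 (859.3, 1388 and 707.9 normalized counts in control cells, 242.9, 257.8 and 365.0 after knockdown, log2 difference -1.73, adjusted p = 0.0446). Leaving out any one of the 6 libraries (adjusted p = 0.0621 to 0.169 by limma), or scaling by library size alone (adjusted p = 0.0873), ended that call. Without HIF-1α-KD replicate 1, Dusp1 passed in its place. With all libraries DESeq2 called 3 genes, Per1, Sgk1 and Dusp1, where of all 12014 genes it called 187 lower and 96 higher. An unadjusted p under 0.05 was reached by 4 of the 7, all lower, against 12.7% of all genes. Besides Per1 these were Dusp1, a phosphatase also induced by stress, with the largest log2 difference of the list (-2.51, adjusted p = 0.142), the kinase gene Sgk1 (-0.89, adjusted p = 0.203) and Klf9 (-0.75, adjusted p = 0.381). The other 3 were Tsc22d3 (-0.57, adjusted p = 0.409), Errfi1 (-0.24, adjusted p = 0.632) and Fkbp5 (-0.09, adjusted p = 0.924). The part of glucocorticoids in the lower metallothionein RNA was not tested.

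The genes whose profile over the 6 libraries was nearest to those of Mt1 and Mt2 were sought among 10045 tested genes with a mean of at least 100 normalized counts. Likeness was measured as the root mean square distance between log2 profiles, each centred on its own mean. For Mt1 the 5 nearest were Itpk1, an inositol phosphate kinase (distance 0.25), Pfkl, a phosphofructokinase of glycolysis (0.26), Mt2 (0.27), Ciart, a circadian repressor (0.29), and Slc2a1 (0.30). For Mt2 they were the immediate-early genes Ier2 (0.20) and Ier3 (0.25), F3, which encodes tissue factor (0.27), Mt1 (0.27) and Celf2, an RNA-binding protein (0.28). Each metallothionein was thus among the 5 genes closest to the other. Apart from the pair itself the 2 lists shared no gene, and the names are given as a description over 6 libraries only.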

How the data were processed

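RNA of sorted MC-38 cells was sequenced (single end, poly-A selected, 3 libraries a group). A single deposited table lists 22880 genes. For each library it gives a normalized signal, made by the authors as read counts over a factor for that library, and deposited FPKM values. Columns with the authors' log2 ratio, p-values and annotation were not used. Per the labels, processing used STAR and edgeR with GRCm38, whereas the methods name STAR, featureCounts and DESeq2 and a human assembly. The gene identifiers are mouse, and 22570 matched GENCODE M21.

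Dividing by the value of 1 read gave whole reads (within 0.1 read) for 100% of values up to 300 reads in every library. On these reads edgeR's count test called 47 genes lower and 0 higher. Genes passing filterByExpr on reads (minimum 10) were tested with limma 3.58.1 (trend, two-sided, Benjamini-Hochberg) on log2(normalized count + 1), which understates changes of low genes, without covariates. Alternatives were edgeR 4.0.16, DESeq2 1.42.0, other scaling, pseudocounts and filters, a replicate block, removal of a width trend and leaving out each library. The sum of fibroblast markers without Col1a1 was added after seeing the data. Scripts were tested on simulated data. Since nothing says that libraries came from separate tumors, p-values measure only the spread between these libraries. Intervals are limma's 95% intervals.

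The members and all gene lists were chosen with earlier results of these data known. Named were all members, Hif1a, in each list every gene past the threshold or else up to 3 with the largest difference, and the 5 nearest profiles to Mt1 and to Mt2. Car9, Egln3, Adm, Slc40a1, the other glucocorticoid-induced genes, single marker genes and the genes next to the metallothioneins were named after their values were seen. For 2 members no promoter sequence was used here, and protein sequences were not used.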

Additional observations from a re-analysis of the deposited data

How the results depend on the processing

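The log2 differences of all 10 members kept their direction under the alternative tests, scalings, pseudocounts and filter, the replicate block and the removal of the width trend, except that of Slc30a1, which was -0.00096 in 1 of them, and ran from -1.73 to -1.57 for Mt1 and from -1.76 to -1.60 for Mt2. Under single left-out libraries, Slc30a1, Slc30a5, Slc30a7 and Slc39a1 came out on either side of 0. The number of members called was 1 after removing the width trend, 0 in limma without a trend, 0 with the replicate block and 0 to 2 with a library left out. Genes called higher numbered 0 in edgeR, 96 in DESeq2, 0 without a trend and 0 with the block, and 0 to 6 with a library left out. Genes called lower numbered 187 in DESeq2, 1 without a trend and 0 with the block, and 0 to 32 with a library left out. Without a trend and with the block, 0 described MTF1 targets, 0 glucocorticoid-induced genes and 0 hypoxia genes were called, and with a library left out these were 0 to 1, 0 to 1 and 0 to 6. Glucocorticoid-induced genes called were 3 in DESeq2 and 0 when scaled by library size alone. The cause of these moves was not tested, beyond the fewer samples or residual degrees of freedom of the left-out and blocked fits.

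Libraries with the same replicate number did not deviate together (correlations of deviations from the group means -0.139, -0.123 and 0.023), so the numbers were not taken as pairs. Among the members, depth limits Slc30a1 most, with 76 reads in its lowest library.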

Other observations

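The genes beside the metallothionein pair on chromosome 8 were read as well. Mt3 and Mt4 lie before Mt2 and had no reads. The nearest tested genes before the pair were Bbs2 (log2 difference -0.12), Ogfod1 (0.12) and Nudt21 (-0.27), and those after it Nup93 (0.09), Herpud1 (0.28) and Nlrc5 (0.86). By limma 0 of these 6 passed (0.391% of all genes did), with adjusted p-values from 0.238 to 0.859. An unadjusted p under 0.05 was reached by 1 (12.7% of all genes did). DESeq2 called 1, where of all 12014 genes it called 187 lower and 96 higher. In 2 of the 6 the groups did not overlap, both higher in HIF-1α-KD cells. Over all genes this held for 19.2% in either direction and for 10.4% on the higher side. These were Herpud1, a gene of the endoplasmic reticulum stress response, at 2508, 2441 and 2256 against 2809, 3071 and 2874 normalized counts, and Nlrc5. The gene that DESeq2 called was Nlrc5, an activator of MHC class I genes, which was at 347.2, 503.4 and 449.4 normalized counts in control cells, and at 592.0, 852.5 and 934.5 after knockdown.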
